A study of Mus musculus with 8 samples.

Results

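Cell surface receptors of macrophages were followed, 10 genes in all: the mannose receptor Mrc1, the scavenger receptors Msr1, Marco, Cd163, Cd36, Scarb1 and Stab1, and the lectins Clec10a, Mgl2 and Clec7a. They were chosen by name, and every probe whose accession maps to one of them was read. Of the 10 genes, 9 had a probe, 12 probes in all among the 41174 on the array, and all 9 passed the filter on dim probes and stood among the 20882 genes tested. No probe could be paired with Clec7a, the beta-glucan receptor dectin-1, through the accession table used, so it was not analysed here. The samples were tumour-associated macrophages from C57BL/6 mice that were ATF3 KO (4 samples) or wild type (WT, 4 samples). ATF3 is a transcription factor that cells make under stress. About 21 days before the sort all hosts had received PyMT breast cancer cells, named for the viral oncogene that drives them, orthotopically, and the sorted cells were positive for both CD45 and the macrophage surface protein F4/80, encoded by Adgre1. The host carried the deletion, and no source used here says that the implanted tumour cells did. The labels number the samples 1 to 4 in each genotype and do not say whether each came from a separate mouse, so each p-value covers the spread of these samples alone, which may be technical.

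Scavenger receptors bind and take up modified lipoproteins, dying cells, haemoglobin complexes and microbial surfaces, and they fall into structural classes that bind overlapping ligands. C-type lectin receptors bind sugars: the mannose receptor takes mannose-bearing glycoproteins, and the galactose-type lectins Clec10a and Mgl2 take galactose and N-acetylgalactosamine. Mrc1, Clec10a and Mgl2 are used as marks of macrophages exposed to IL-4 and IL-13, and Mrc1, Cd163 and Stab1 mark many resident and tumour macrophages.

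Promoter windows are given for Mrc1 and Cd163, which varied together, and for Mgl2, which had the largest positive difference in KO. They are from RefSeq (build GRCm38.p6), 250 bases before to 50 bases after a start site. The windows are chr2:14229164-14229463 (plus strand) for Mrc1, chr6:124304401-124304700 (plus strand) for Cd163 and chr11:70130107-70130406 (plus strand) for Mgl2, and capitals mark matches to GAGGAA or its reverse complement, a short core bound by the macrophage factor PU.1.
Mrc1: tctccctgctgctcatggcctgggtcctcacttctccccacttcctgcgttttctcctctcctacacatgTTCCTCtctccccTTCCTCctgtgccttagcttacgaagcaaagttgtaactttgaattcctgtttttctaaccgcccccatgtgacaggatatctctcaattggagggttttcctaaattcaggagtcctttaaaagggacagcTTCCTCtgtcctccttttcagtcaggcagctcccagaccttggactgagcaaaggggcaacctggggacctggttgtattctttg
Cd163: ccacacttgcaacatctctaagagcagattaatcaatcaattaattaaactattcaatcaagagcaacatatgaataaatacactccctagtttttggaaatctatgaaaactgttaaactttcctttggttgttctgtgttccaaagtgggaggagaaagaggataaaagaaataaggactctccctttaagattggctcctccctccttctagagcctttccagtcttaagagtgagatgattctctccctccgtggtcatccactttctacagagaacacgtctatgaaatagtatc
Mgl2: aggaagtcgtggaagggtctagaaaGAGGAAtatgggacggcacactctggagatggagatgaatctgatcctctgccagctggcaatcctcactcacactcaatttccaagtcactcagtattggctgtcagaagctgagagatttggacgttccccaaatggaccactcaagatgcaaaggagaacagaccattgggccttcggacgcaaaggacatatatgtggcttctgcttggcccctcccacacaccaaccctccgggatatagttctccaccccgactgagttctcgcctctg
The window of Mrc1 held 3 such matches, that of Mgl2 held 1 and that of Cd163 held 0. The Mgl2 window is set on a start site inside the annotated gene, which begins at 70130125. Most of that window, with its match, thus lies within the gene. Of the 32851 RefSeq windows of the same length, 28.3% held at least 1. RefSeq windows were matched for 7 of the 10 genes. TGACGTCA, the full site of ATF/CREB factors, had 0 matches on either strand in these windows, where 1.79% of all windows held it. The AP-1 site TGANTCA likewise had 0 matches, where 7.81% of all windows held it. A STAT6-type site, TTC and GAA with any 4 bases between them, bound by a factor that IL-4 activates, was held by 6.95% of all windows. It had 1 match in the window of Cd36 and 1 in each of the 2 windows of Clec7a. Those 2 windows overlap, and their matches are the same site. The NF-kB site GGGANNNCC had 0 matches, where 18.6% of all windows held it. No match of a motif overlapped a match of another, and a match describes letters only.

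Signals were read as log2 of the processed intensity minus the 75th percentile of the array, so 0 is the brightness of a spot at that percentile. The percentile lay between 619 and 927 intensity units, 63.7% to 68.0% of spots were well above background, and the number of arrays limits the precision. Each slide held 4 arrays, with numbers 1 and 2 of both genotypes on slide 1 and numbers 3 and 4 on slide 2. Atf3, read by 1 probe, measured 5.52, 4.86, 4.96 and 4.88 in the samples labelled KO 1 to 4, against 4.92, 4.99, 4.78 and 4.51 in those labelled WT. No source used here places the probe inside or outside the deleted sequence, so Atf3 checks nothing about the labels. KO and WT below are the labels. The sort markers were high in all samples, with Adgre1 at 3.47 to 4.68 in KO and 3.33 to 4.70 in WT, and Ptprc, the CD45 gene, at 3.70 to 4.91 in KO and 3.78 to 4.94 in WT.

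Setting KO against WT asks what the loss of ATF3 in the host changes in its tumour macrophages. None of the 9 receptor genes passed between KO and WT. The limma adjusted p was 0.9998 for each receptor, and 0% of all genes were called at an adjusted p under 0.05. At an unadjusted p under 0.05 there were 0 of the 9, where 3.34% of all genes had one, and with the replicate number as a block there were again 0, where 7.55% of all genes had one. The KO and WT samples overlapped for all 9 receptors, where 2.11% of all genes did not overlap. The differences were positive for 2 receptors and negative for 7, with a median of -0.15 on the log2 scale, beside -0.0075 over all genes, of which 48.8% were positive. The 95% intervals of 3 receptors, Cd36, Scarb1 and Stab1, lay within a 2-fold change either way. With the replicate number as a block there were 6, since Mrc1 (-0.38 to 0.32), Msr1 (-0.46 to 0.15) and Cd163 (-0.59 to 0.29) then lay within it too.

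**Figure D1:**
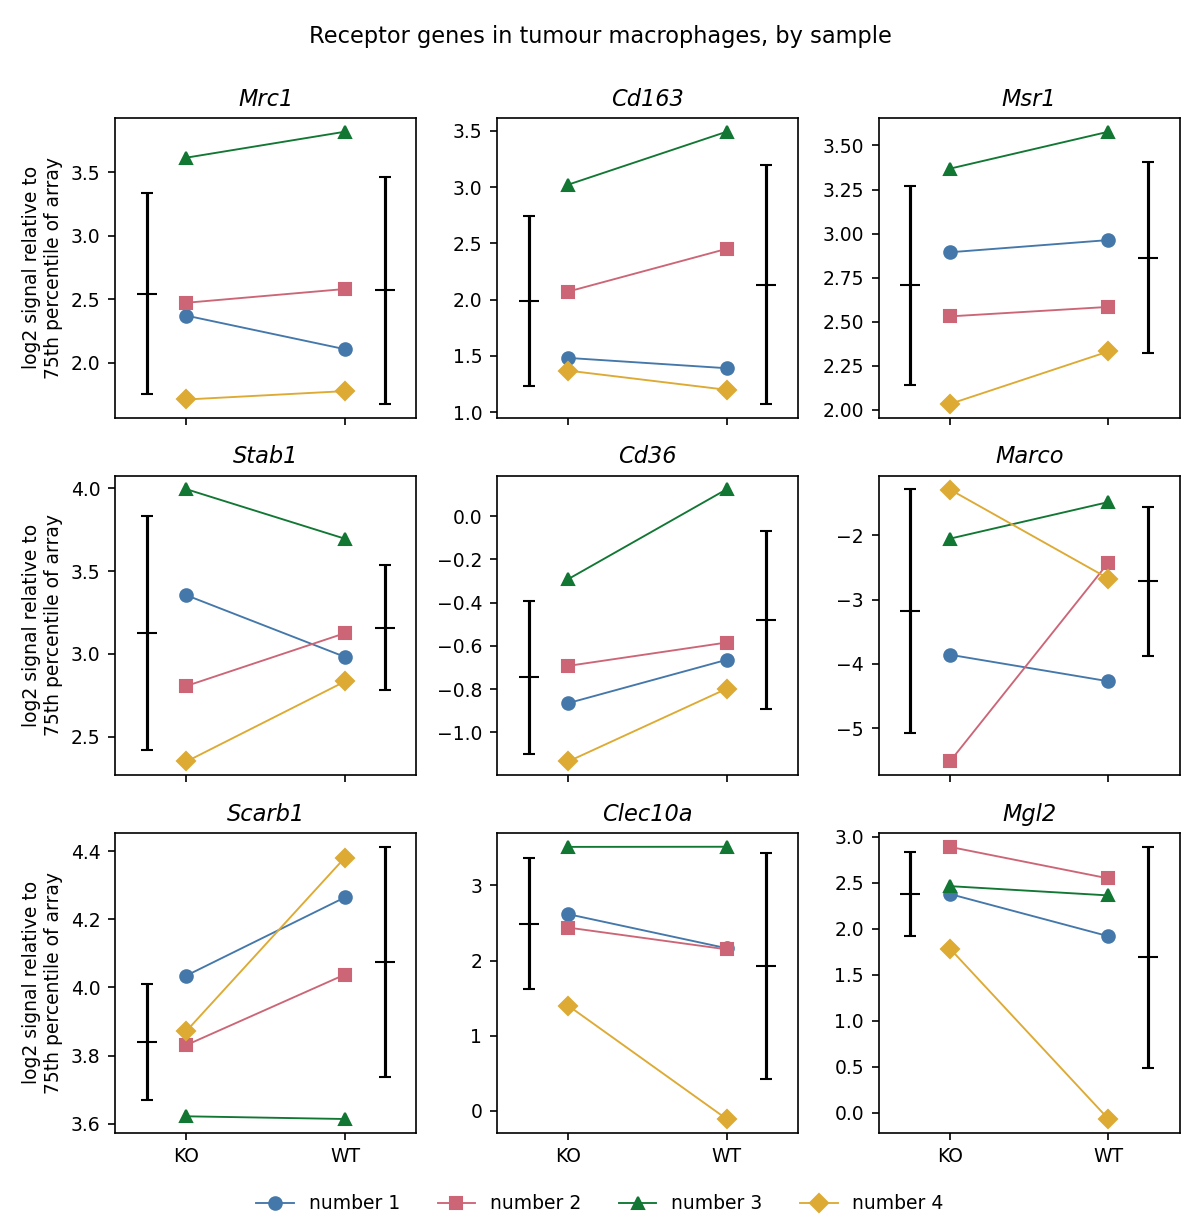
Log2 signal relative to the 75th percentile of each array for 9 receptor genes, with the KO samples left and the WT samples right in each panel. Lines join same-numbered samples, and black bars give the mean and SD of each genotype (n = 4). Number 3 is the highest sample of both genotypes for 6 genes, and WT sample 4 is the low point for Clec10a and Mgl2.

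Mrc1, the mannose receptor that clears mannose-bearing glycoproteins, measured 2.37, 2.47, 3.62 and 1.71 in KO samples 1 to 4 and 2.11, 2.58, 3.82 and 1.78 in WT samples 1 to 4. Sample 3 was highest and sample 4 lowest in both genotypes, and the genotypes overlapped fully. The means were 2.54 ± 0.79 in KO and 2.57 ± 0.90 in WT (SD, n = 4 each). They differed by -0.03 on the log2 scale, with a standard error of 0.54 and a 95% interval from -1.28 to 1.22. Single samples set the sign of this value, which was -0.39 without KO sample 3 and 0.39 without WT sample 3, and it was also positive when KO sample 1 (0.029) or KO sample 4 (0.25) was left out.

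Cd163, the receptor for haptoglobin-haemoglobin complexes, had the same order of samples at its ends. It measured 1.48, 2.07, 3.02 and 1.37 in KO samples 1 to 4 and 1.39, 2.45, 3.49 and 1.20 in WT samples 1 to 4. The highest sample stood 3.15-fold above the lowest in KO and 4.91-fold in WT, both times sample 3 over sample 4. The genotype difference was -0.15 with a standard error of 0.59 (limma adjusted p = 0.9998). It was -0.49 when KO sample 3 was left out and 0.31 when WT sample 3 was. It was also positive without KO sample 1 (0.021) or KO sample 4 (0.059). Without both samples numbered 3 it was -0.039.

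Msr1 encodes the class A scavenger receptor that takes up acetylated and oxidised lipoproteins, and 3 probes read it. The brightest measured 2.89, 2.53, 3.37 and 2.03 in KO samples 1 to 4 and 2.96, 2.58, 3.58 and 2.33 in WT samples 1 to 4. Its difference was -0.16 with a standard error of 0.37 and an interval of -1.01 to 0.69, and each KO sample lay below the WT sample of its number. It was positive when KO sample 4 (0.067) or WT sample 3 (0.080) was left out, and -0.38 when KO sample 3 was. The other 2 probes differed by 0.03 and -0.0066, so the 3 probes do not share a direction. All 3 were highest in sample 3 and lowest in sample 4 of both genotypes.

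Marco, the second class A receptor, which binds bacteria and particles, was near background in some samples. Its only probe was well above background on 3 of 4 KO arrays and all 4 WT arrays, and KO sample 2 was the array where it was not. It measured -3.86, -5.52, -2.05 and -1.29 in KO samples 1 to 4 and -4.27, -2.42, -1.48 and -2.67 in WT samples 1 to 4. The highest WT sample was 6.91-fold above the lowest, and no such fold is given in KO, where the lowest value was not well above background. The difference was -0.47 with a standard error of 0.98. Without KO sample 2 the difference was 0.31, and it was -1.34 within slide 1 and 0.41 within slide 2.

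The class B receptors bind lipids and lipoproteins. Cd36, which takes up oxidised lipoproteins and long-chain fatty acids, measured -0.86, -0.69, -0.29 and -1.13 in KO samples 1 to 4 and -0.66, -0.58, 0.12 and -0.80 in WT samples 1 to 4. Each KO sample lay below the WT sample of its number, as it did for 9.63% of all genes. The difference was -0.27 with a standard error of 0.27 and an interval of -0.90 to 0.36, and it stayed negative with every sample left out in turn. It was -0.42 without KO sample 3, -0.14 without KO sample 4 and -0.06 without WT sample 3.

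Scarb1, the HDL receptor SR-BI, measured 4.03, 3.83, 3.62 and 3.87 in KO samples 1 to 4 and 4.26, 4.04, 3.61 and 4.38 in WT samples 1 to 4. Here sample 3 was the lowest of both genotypes, opposite to Mrc1, Cd163 and Msr1. The means were 3.84 ± 0.17 in KO and 4.07 ± 0.34 in WT (SD, n = 4 each). Their difference was -0.23, standard error 0.21, with an interval from -0.73 to 0.26. It was -0.39 without WT sample 3, -0.13 without WT sample 4 and -0.080 with normexp background correction. Scarb1 varied least of the 9, by 1.33-fold across the KO samples and 1.70-fold across the WT samples.

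Stab1, the multidomain receptor stabilin-1 that takes up acetylated lipoproteins and the matrix protein SPARC, was read by 2 probes. The brighter measured 3.35, 2.81, 3.99 and 2.35 in KO samples 1 to 4 and 2.98, 3.13, 3.69 and 2.83 in WT samples 1 to 4. The highest sample was 3.12-fold above the lowest in KO and 1.82-fold in WT. The difference was -0.03 with a standard error of 0.38, and the dimmer probe gave -0.12. It was -0.32 without KO sample 3, and positive when KO sample 2 (0.074), KO sample 4 (0.23) or WT sample 3 (0.15) was left out.

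Endothelial cells can also express Stab1, Scarb1, Cd36 and Mrc1, and their markers were lower on balance in KO. The summed signal of the 11 endothelial markers tested, of 12 listed, was 2.54, 3.73, 2.46 and 6.54 times the 75th percentile in KO samples 1 to 4 and 5.68, 9.80, 2.43 and 12.0 times in WT samples 1 to 4. Of the 11, 0 had a positive difference, the median was -1.01 and 0 passed. Cdh5, the endothelial cadherin, differed by -0.96 and Pecam1, a junction protein, by -0.42. The part of endothelial cells in the receptor values was not tested. Adipocytes also express Cd36. Of their 4 tested markers, of 10 listed, 2 had positive and 2 negative differences, with a median of 0.05, and 0 passed. The sum of the 4 was 1.98 to 5.18 times the 75th percentile in KO and 1.69 to 3.55 times in WT. It was led by Fabp4, which is also counted below among the partners of the receptors. Fabp4 measured 0.92 to 2.35 in the KO samples, where Plin1 measured -5.40 to -4.66, so the sum says little about the other markers. Adipoq, the adipocyte hormone adiponectin, was well above background on 4 of 4 KO arrays and 2 of 4 WT arrays. The filter thus kept it through the KO arrays, and no size is given for its difference. It is among the 2 markers counted as positive. Plin1, which coats lipid droplets, differed by -0.30 and was lower in KO in 4 of 4 pairs. The part of adipocytes in the Cd36 values was not tested.

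Clec10a and Mgl2 encode the mouse galactose-type lectins MGL1 and MGL2, paralogs that neighbour each other on chromosome 11. Whether their probes read each other's transcripts was not tested. These were the 2 receptors with positive differences, and leaving out WT sample 4 moved both to near 0. That fit kept KO sample 4, the lowest KO sample for both genes, so its genotypes are unbalanced over the numbers. Within pairs 1 to 4 Clec10a differed by 0.45, 0.29, -0.0018 and 1.51. Clec10a measured 2.62, 2.44, 3.51 and 1.40 in KO samples 1 to 4 and 2.16, 2.15, 3.51 and -0.11 in WT samples 1 to 4. WT sample 4 was the low point, with 733 intensity units against 2075 in KO sample 4. The difference was 0.56 with a standard error of 0.77 (limma adjusted p = 0.9998), and -0.12 without WT sample 4. It was 0.22 without KO sample 3, 0.93 without KO sample 4 and 1.09 without WT sample 3.

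Mgl2 measured 2.38, 2.89, 2.46 and 1.79 in KO samples 1 to 4 and 1.92, 2.55, 2.36 and -0.07 in WT samples 1 to 4. Each KO sample lay above the WT sample of its number, by 0.46, 0.34, 0.10 and 1.86, as it did for 7.52% of all genes. The difference of 0.69 had a standard error of 0.58 and an interval of -0.65 to 2.03, and it was 0.10 without WT sample 4. Within slide 1 it was 0.40, and within slide 2, which holds WT sample 4, it was 0.98 with a standard error of 0.98. WT sample 4 also had the lowest summed signal of the 8 dendritic cell markers tested, of 10 listed, a cell type that can express both lectins: it was 10.04, 7.06, 3.86 and 3.20 times the 75th percentile in KO samples 1 to 4 and 7.03, 6.86, 3.97 and 2.32 times in WT samples 1 to 4. The dendritic cell sum was led by H2-DMb2. Flt3 lay between -4.02 and -2.26 and Xcr1 between -3.34 and -2.02 over the samples, so the sum says little about these markers. Of the named markers, Flt3 was lowest in WT sample 4 at -4.02, and Xcr1 was lowest in KO sample 3 at -3.34. WT sample 4 was also the lowest of all 8 for the sums of monocyte markers (32.7, against 46.4 in KO sample 4), macrophage markers (256) and B cell markers (1.06). The part of these cells in the lectin values was not tested.

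**Figure D2:**
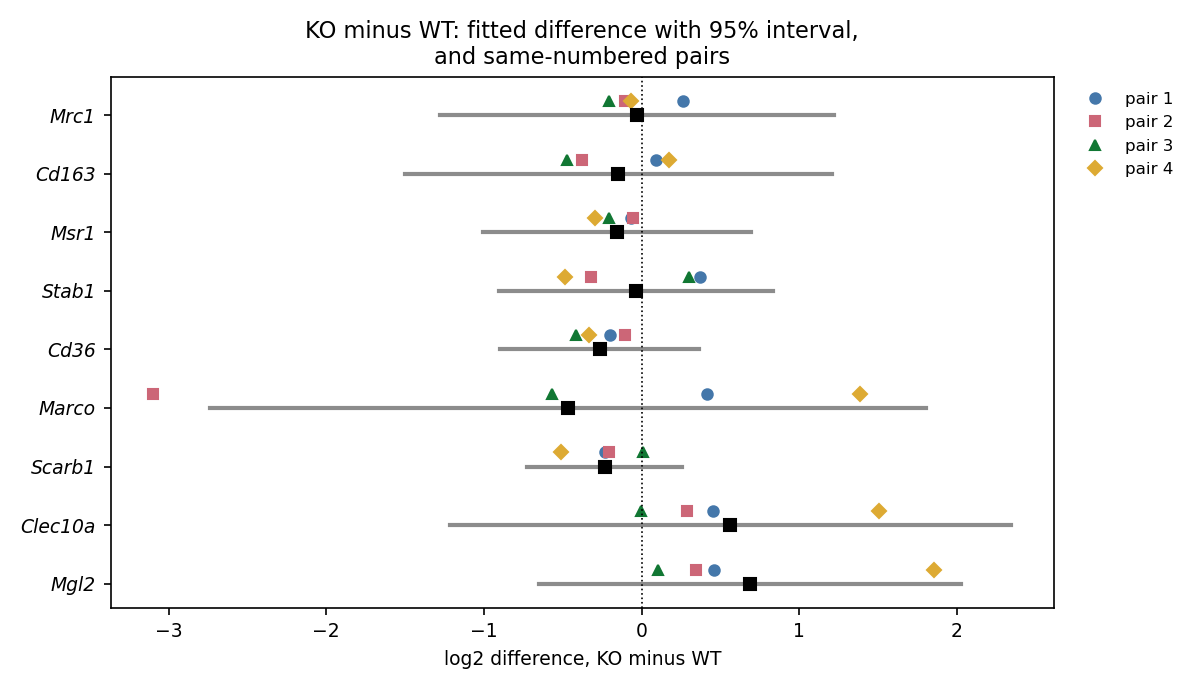
Log2 difference KO minus WT for each receptor gene. Black squares are the limma estimates with their 95% intervals as grey bars, and coloured points are the differences within same-numbered pairs. Every interval spans 0, and the pair numbered 4 holds the largest differences of Clec10a and Mgl2, 1.51 and 1.86.

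The sample number separated the receptors far more than genotype did. For 6 of the 9 receptors, Mrc1, Cd163, Msr1, Stab1, Cd36 and Clec10a, sample 3 was the highest in both genotypes, as it was for 17.9% of all genes. A limma F test of the number, with genotype in the model and added after these values were seen, called 3 receptors at an adjusted p under 0.05, where 7.25% of all genes were called. They were Mrc1 (adjusted p = 0.0311), Cd163 (0.0391) and Msr1 (0.0477). At an unadjusted p under 0.05 there were 7 of the 9, all but Marco and Scarb1, where 29.5% of all genes had one. The number took 98.5% of the sum of squares of Mrc1, 96.1% of that of Cd163 and 96.3% of that of Msr1, and the median over the 9 was 85.5%, beside 66.3% over all genes. Genotype took a median of 2.86% over the 9, beside 4.94% over all genes. Over numbers 1, 2 and 4 alone the F test called 0 receptors and 0% of all genes, with 3 of the 9 and 17.5% of all genes at an unadjusted p under 0.05. That fit has fewer samples. The labels do not say what samples of one number share.

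Markers of other cells differed between the numbers too, in both genotypes alike. The summed signal of the 11 macrophage markers tested, of 12 listed, was 436, 355, 488 and 260 times the 75th percentile in KO samples 1 to 4 and 424, 385, 485 and 256 times in WT samples 1 to 4. It was highest in sample 3 and lowest in sample 4, as for most of the receptors. The summed signal of the 11 tumour epithelial markers tested, of 12 listed, ran the other way, at 41.4, 92.9, 14.8 and 136 times in KO samples 1 to 4 and 44.4, 93.1, 14.2 and 128 times in WT samples 1 to 4. Krt8, a keratin of simple epithelia, measured 1.52 in KO sample 3 and 4.95 in KO sample 4, and 1.63 in WT sample 3 and 4.90 in WT sample 4. Of those 11 epithelial markers 9 were lowest in sample 3 of both genotypes, and so were all 9 fibroblast markers, whose sums ranged from 12.0 to 62.0 times in KO and from 10.9 to 51.1 times in WT. In such mixed samples, fewer macrophages and less receptor RNA in each macrophage cannot be told apart, and the part of these other cells in the differences between numbers was not tested.

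**Figure D3:**
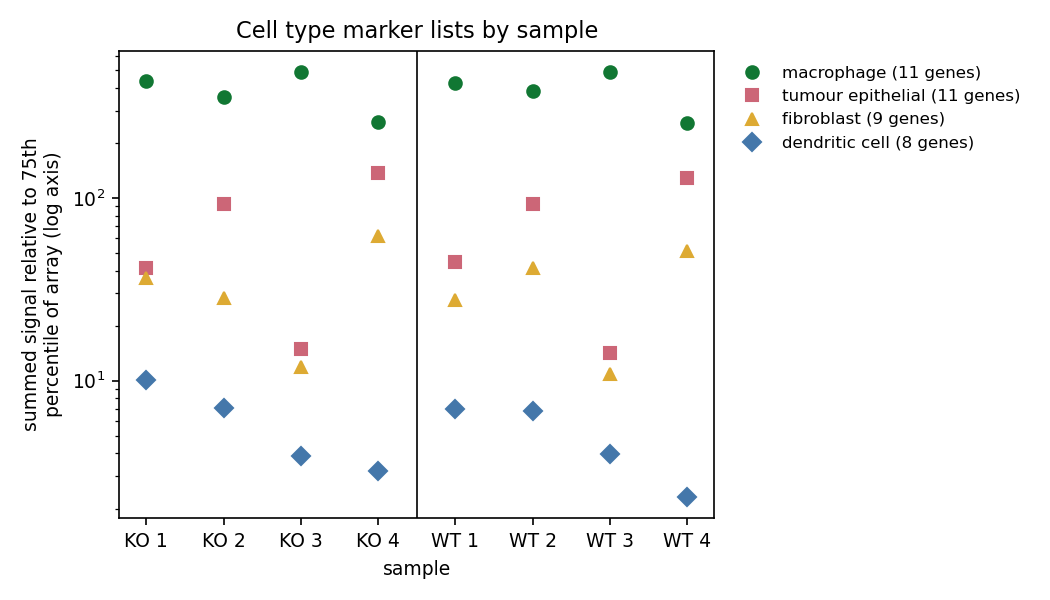
Summed signal of 4 marker lists in each sample, relative to the 75th percentile of its array, on a log axis, KO samples left and WT samples right. Sample 3 of both genotypes has the highest macrophage sum (488 in KO, 485 in WT) and the lowest epithelial sum (14.8 in KO, 14.2 in WT).

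Set against the mean log2 signal of the same 11 macrophage markers, a scale chosen after the values were seen, the receptors parted. Mrc1 still differed between numbers (limma F adjusted p = 0.0305), at -2.27, -1.73, -1.20 and -2.03 in KO samples 1 to 4 and -2.48, -1.79, -1.01 and -1.95 in WT samples 1 to 4. Cd163 did too (0.0279), at -3.16, -2.13, -1.80 and -2.37 in KO and -3.20, -1.93, -1.34 and -2.54 in WT. Both were thus highest in sample 3 and lowest in sample 1 on this scale. Msr1 did not pass (0.335), and it lay between -1.75 and -1.45 in KO and between -1.79 and -1.26 in WT. Stab1 did not pass either (0.464). Scarb1 passed (0.0277) in the other direction, lowest in sample 3 at -1.20 in KO and -1.22 in WT, and highest in sample 4 at 0.13 in KO and 0.65 in WT. Relative to the array percentile it had not passed between numbers (limma F adjusted p = 0.273). The macrophage mean itself was 4.82 in KO sample 3 and 3.74 in KO sample 4, and 4.83 and 3.73 in those WT samples. The Scarb1 result on this scale therefore includes the change of the scale, and no change of Scarb1 itself is read from it. On this scale 36.4% of all genes were called between numbers, so 3 of 9 receptors is close to the background, and 4 of 9 had an unadjusted p under 0.05, where 54% of all genes had one. On it genotype called 0 receptors and 0% of all genes. The genotype differences of Clec10a and Mgl2 were 0.60 and 0.72, with standard errors of 0.52 and 0.45.

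**Figure D4:**
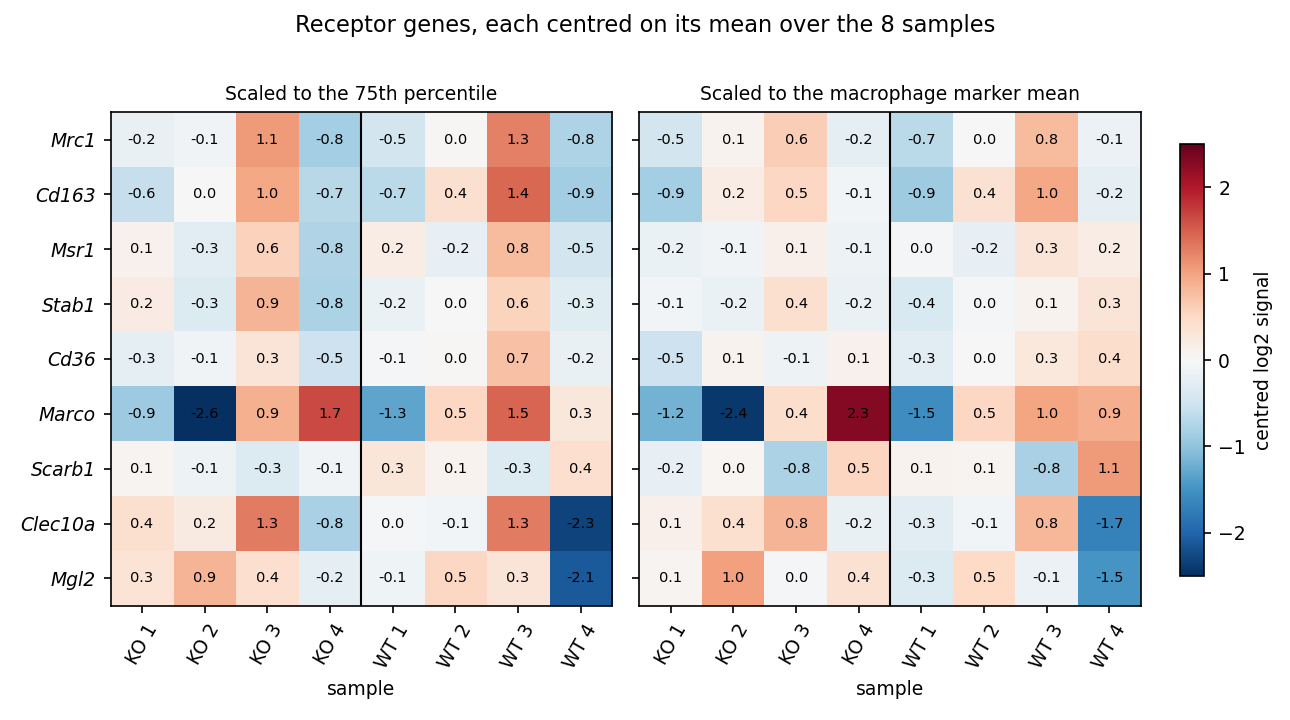
Log2 signal of each receptor gene in each sample, centred on its mean over the 8 samples, with the array's 75th percentile as scale on the left and the mean of 11 macrophage markers on the right. Red is above and blue below the gene's mean. On the left sample 3 is the highest of both genotypes for 6 receptors, and on the right Msr1 and Stab1 pale while Mrc1 and Cd163 keep their contrast between samples 3 and 1.

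Other lists bore on the same biology. Of 33 other lectin genes tested, of 39 listed and not all genes of macrophages or dendritic cells, 0 passed over all genes. Positive differences numbered 21 and negative 12, with a median of 0.15. These counts include genes, named below, that the filter kept through the KO arrays. Among the 25 that were well above background on all 8 arrays, 15 were positive and 10 negative, with a median of 0.098. Over the 33, the count turned to 10 positive and 23 negative without WT sample 4. It was 12 and 21 without KO sample 3 and 16 and 17 without KO sample 1. It was 28 and 5, with a median of 0.37, without KO sample 4, and 24 and 9, with a median of 0.31, without WT sample 3. Each of these fits keeps the other sample of that number, so differences between numbers enter the counts. Without both samples numbered 3 the count was 21 and 12, as with all samples, with a median of 0.17. The lectin with the smallest unadjusted p (0.0488, the 1 of 33 under 0.05) was Clec1b, the podoplanin receptor CLEC-2, at -1.93 ± 0.19 in KO and -3.27 ± 1.26 in WT (SD, n = 4 each), a difference of 1.33 (limma adjusted p = 0.9998). It measured -1.88, -1.90, -1.75 and -2.20 in KO samples 1 to 4 and -3.10, -3.28, -1.81 and -4.88 in WT samples 1 to 4. Clec4g, Cd209c and Siglech, a lectin of plasmacytoid dendritic cells, came next by p. They were well above background on 3, 3 and 4 of the 4 KO arrays and on 1 WT array each, so the filter kept them through the KO arrays, and no size is given for their differences. Of these 33 lectins, 17 were highest in sample 3 of both genotypes.

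Of 16 other scavenger receptors tested, 0 passed, 4 had positive and 12 negative differences, with a median of -0.23, and without KO sample 2 there were 7 positive and 9 negative, with a median of -0.05. Without KO sample 1 there were 3 positive and 13 negative, with a median of -0.40. Colec12, a class A scavenger receptor with a lectin domain, differed by -1.15 with a standard error of 0.69, and KO sample 2 was its lowest at -4.31. Cd93, a surface glycoprotein of endothelial and myeloid cells, differed by -0.27, the class A relative Scara3 by -0.52 and Lrp1, a large endocytic receptor, by -0.30.

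Among 29 ligands, partners and signalling genes of these receptors, 0 passed, with 12 positive and 17 negative differences. The split ran from 7 positive and 22 negative when WT sample 4 or KO sample 1 was left out to 18 positive and 11 negative when KO sample 4 was, or with normexp background correction. Leaving out KO sample 2 or WT sample 1 gave 15 positive and 14 negative. Without both samples numbered 3 there were 11 positive and 18 negative. Apoa1, the main protein of HDL that Scarb1 binds, differed by -0.64, and Pdzk1, the scaffold that holds Scarb1 at the membrane of hepatocytes, by -0.90. Both were lower in KO in 4 of 4 pairs and neither passed (limma adjusted p = 0.9998 for each). The Apoa1 probe was well above background on 3 of 4 KO arrays. Gga2, an adaptor for stabilin-1 sorting, differed by 0.20 and the lipid carrier Fabp4 by 0.39. Among 29 regulators, 0 passed, with 9 positive and 20 negative, while normexp background correction gave 19 positive and 10 negative. Leaving out KO sample 4 gave that same split, and leaving out WT sample 3 gave 15 positive and 14 negative. Without both samples numbered 3 there were 8 positive and 21 negative. Leaving out KO sample 3 or WT sample 4 gave 5 positive and 24 negative, with medians of -0.18 and -0.23, beside -0.09 with all samples, and leaving out KO sample 1 gave 7 and 22, with a median of -0.24. Jak3, a kinase of the IL-4 receptor, differed by -0.48, the lipid-sensing receptor Ppard by -0.52, Il13ra1, a chain of the IL-4 and IL-13 receptor, by 0.31 and the histone demethylase Kdm6b by -0.29.

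Alternative activation genes had 15 of 17 positive differences with a median of 0.34, beside 48.8% positive over all genes, and 0 passed. The list also holds Lyve1, a gene of some resident macrophages. Markers of several other immune cells ran the same way, but those of neutrophils and macrophages did not, and 0 of all these passed. Macrophage markers had 3 positive and 8 negative differences with a median of -0.04. NK cell markers had 7 of 8 positive differences with a median of 0.59, T cell markers 8 of 9 with 0.51, and mast cell and eosinophil markers 6 of 7 with 0.45. Neutrophil markers had 2 positive and 6 negative differences with a median of -0.21, and their sum was lower in KO in each pair. The mast cell and eosinophil sum was higher in KO for numbers 2 and 4. It was lower in KO for number 1 (12.7 against 14.5) and number 3 (0.93 against 1.09). The NK cell sum was 23.8, 31.4, 8.11 and 13.8 times the 75th percentile in KO samples 1 to 4 and 13.9, 14.5, 5.81 and 10.1 times in WT samples 1 to 4, higher in KO in each pair. The T cell sum, at 6.90 to 18.6 times in KO and 5.02 to 13.6 times in WT, was higher in KO in each pair too. Their part in the differences of the alternative activation genes was not tested. For the alternative activation genes, without WT sample 4 the count was 10 of 17 and the median 0.06, without KO sample 3 they were 10 of 17 and 0.14, without WT sample 2 they were 12 of 17 and 0.17, without WT sample 3 they were 16 of 17 and 0.72, and within slide 2 it was 9 of 17 and 0.0035. Without both samples numbered 3 the count was 15 of 17 and the median 0.38. The phosphatidylserine receptor Timd4 differed by 0.72, the chemokines Ccl24 and Ccl17 by 0.41 and 0.72 and the chitinase-like Chil4 by 0.65. Ccl17 measured -2.61 in WT sample 4, against 0.21 to 2.19 in the other WT samples and 0.06 to 1.72 in the KO samples, so that sample again was the low point. Lyve1, a hyaluronan receptor of lymphatic endothelium and of some resident macrophages, measured 2.81, 4.21, 4.89 and 2.61 in KO samples 1 to 4 and 2.86, 3.24, 5.20 and 2.46 in WT samples 1 to 4. Sample 3 was its highest in both genotypes too. Prox1, which defines lymphatic endothelium, was well above background on 0 KO arrays and 1 WT array.

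Likeness between genes was measured as the root mean square distance of their centred log2 profiles over the 8 arrays. The nearest receptor to Mrc1 was Cd163, and the reverse, at 0.23. Msr1 and Stab1 were each other's nearest at 0.20, and Clec10a and Mgl2 at 0.59. Scarb1 had no near member, with Cd36 nearest at 0.55, beside a median distance of 0.53 to all genes. Over all named genes the nearest to Mrc1 was Nxpe5 at 0.12, beside a median of 0.81. The nearest outside the receptors were Tbc1d14 for Msr1 at 0.08, Fggy for Clec10a at 0.31 and Pms2 for Mgl2 at 0.22. With 8 arrays and many genes, some gene lies close to any profile.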

How the data were processed

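The receptors, lists and alternatives were chosen with earlier results of these data known. Per the labels, 250 ng of total RNA per sample was amplified and Cy3-labelled. The authors' Agilent arrays hold 1 colour and were read by Feature Extraction 10.7.1.1, per the file headers (10.5 in the submitters' processing notes), and the deposited intensity is a background-corrected processed signal. The other deposited values, per the file headers, are flags. The authors' deposited table of intensity values, of unstated scale, had column medians of 92.0 to 94.0. Set against quantile-normalized median signals over 22256 probes, array differences gave r = 0.9994. The table served as an alternative only.

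Without control and outlier spots, log2 signals were averaged per probe and set against the 75th percentile of their array. Probes well above background on at least 4 arrays were kept (27168 of 41174), and the brightest stood for its gene. Through the accession, 25097 probes were named from a RefSeq table (GRCm38.p6) and 16077 were not, Clec7a among the genes without a named probe. KO was compared with WT by limma 3.58.1 in R 4.3.3 (lmFit, eBayes, two-sided, Benjamini-Hochberg over 20882 genes), which was tested on simulated data. Named beside the receptors are Atf3, Adgre1 and Ptprc, the 4 genes of smallest p in each related list, the first 3 of each marker list, of which some are not reported here, and the nearest genes by profile.

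Deviations from the genotype means correlated at 0.30, 0.14, 0.70 and 0.51 for the samples numbered 1 to 4, all over 0.1. Samples numbered 1, 3 and 4 each correlated most with the sample of their own number, so by their values they form pairs. For number 2 the values do not settle it. WT sample 2 correlated at 0.154 with KO sample 4 and at 0.140 with KO sample 2, and KO sample 2 correlated at 0.139 with WT sample 4. The labels give no reason for the pairing.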

Additional observations from a re-analysis of the deposited data

Results flagged for a closer look

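Of 144 sets of 4 samples examined by Dixon's test, 3 held a sample far from the others, where chance gives about 1 in 20. Atf3 in KO sample 1 was at 5.52, against 4.96 in the next highest KO sample. Siglech, a gene of plasmacytoid dendritic cells, was at -5.59 in KO sample 3, against -5.09 in the nearest KO sample. Flt3, a gene of dendritic cells and their precursors, was at -2.29 in KO sample 1, against -3.59 in the nearest. None of the 12 receptor probes held such a sample.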

How the results depend on the processing

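No receptor passed between genotypes under any alternative run. Of all genes, 0 passed under each alternative but 1: the count was 0 to 1 with single samples left out, the 1 without KO replicate 1. With the replicate number as a block (replicate block), 0 genes passed and 1576 had an unadjusted p under 0.05, against 697 without it, and it changed no receptor's call. Signs turned for Mrc1, Msr1, Marco, Cd163, Stab1 and Clec10a. With normexp background correction, where the median of all genes was -0.14, Mrc1 gave 0.11, Msr1 0.056, Cd163 0.011 and Stab1 0.039. Within slide 1 Mrc1 gave 0.078 and Stab1 0.027, and within slide 2 Marco gave 0.41. A second Msr1 probe gave 0.026. Mrc1 gave 0.030 without both samples numbered 3, and on the macrophage marker scale, where the median of all genes was 0.03, Mrc1 gave 0.0051 and Stab1 0.00086 (both settings chosen after the data were seen). Leaving out single samples ranged from -0.39 to 0.39 for Mrc1, -0.38 to 0.080 for Msr1, -1.10 to 0.31 for Marco, -0.49 to 0.31 for Cd163, -0.32 to 0.23 for Stab1 and -0.12 to 1.09 for Clec10a. Each such fit keeps the other sample of that number, so differences between numbers enter these ranges. Without both samples numbered 3, Msr1 gave -0.14, Marco -0.43, Cd163 -0.039, Stab1 -0.14 and Clec10a 0.75. The cause of the changes of sign was not tested. Cd36, Scarb1 and Mgl2 kept their signs in all alternatives run. With normexp background correction, though, Scarb1 at -0.080 lay above the median of all genes, -0.14. With 4 samples a genotype, the median 95% interval over all genes reached 0.74 to either side, and the stricter filter left Marco out.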
